A study of Mus musculus with 10 samples.

Results

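Mast cells make and store the amines histamine and serotonin, and 3 genes, Hdc, Tph1 and Slc18a2, carry the committed steps of that work. They were chosen by name as the histidine decarboxylase, tryptophan hydroxylase and vesicular amine transporter of these cells, and were found as 3 of the 49671 gene rows of the count table. Full-length SmartSeq2 RNA sequencing was used on BMMCs, cultured mast cells that mouse bone marrow gives rise to in interleukin 3 (IL-3). All cells were from wild-type C57BL/6 mice with a labelled age of 6 to 8 weeks, and all had grown for 6 to 8 weeks in IL-3, for which the labels give 5 ng/mL (growth protocol) or 10 ng/mL (source name). Stimuli lasted 72 h. They were 100 ng/mL stem cell factor (SCF), which binds the receptor KIT, in 2 libraries, SCF together with transforming growth factor beta (TGF-β) at 1 ng/mL in 2 libraries and at 10 ng/mL in 2, and TGF-β alone in 1 library at each of these doses. They were set against cells in IL-3 alone (n = 2). The SCF dose of the combinations is not labelled, and the labels do not say whether IL-3 stayed in the medium of the stimulated cells. BMMCs are cultured, immature mast cells, and nothing states that replicates were separate cultures, so the spread behind each p-value is that between these libraries and may be technical. The libraries are of bulk RNA, in which fewer cells of a type and less RNA per cell cannot be told apart.

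Histamine is made in a single step, the removal of the carboxyl group of histidine by HDC. Serotonin takes a pair of steps: TPH1 hydroxylates tryptophan, which sets the rate outside the nervous system, and the aromatic amino acid decarboxylase DDC finishes the product. SLC18A2, the vesicular monoamine transporter VMAT2, exchanges protons of the acid granule for either amine and so fills the granules that mast cells empty on activation. Rodent mast cells are known for holding much serotonin as well as histamine.

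All 3 genes are protein coding in GENCODE vM21 on GRCm38. Hdc (ENSMUSG00000027360) lies on the minus strand of chromosome 2 at 126593667 to 126619299, Tph1 (ENSMUSG00000040046) on the minus strand of chromosome 7 at 46644641 to 46672537, and Slc18a2 (ENSMUSG00000025094) on the plus strand of chromosome 19 at 59260896 to 59296012. Their merged exons span 6.389, 6.172 and 5.225 kb. The 5′ end of Slc18a2 overlaps an annotated antisense gene, Gm29261, at 59259512 to 59261419.

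The 250 bases before each RefSeq start are shown because the 3 genes took different courses under the same stimuli, as described below for each gene, and because GATA factors, MITF, SMAD and STAT proteins act in mast cells or downstream of these ligands. They come from the RefSeq promoter table on GRCm38.p6 and run 5′ to 3′ on the gene's strand. Tph1 has 2 annotated starts. None of the windows overlaps an annotated exon. Capitals mark matches, on either strand, to 4 GATA words (AGATAA or TGATAA; also AGATAG or TGATAG), 2 MITF E-boxes (CACGTG or CATGTG), 2 SMAD words (CAGACA or GTCTAGAC) and the STAT word TTCNNNGAA. No match overlaps another.
Hdc, chr2:126618679-126618928, minus strand: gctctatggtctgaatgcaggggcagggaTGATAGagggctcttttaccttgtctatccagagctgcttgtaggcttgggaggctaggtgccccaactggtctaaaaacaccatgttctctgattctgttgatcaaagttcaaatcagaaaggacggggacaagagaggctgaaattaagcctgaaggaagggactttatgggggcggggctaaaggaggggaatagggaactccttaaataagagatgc
Tph1 start site 1, chr7:46672538-46672787, minus strand: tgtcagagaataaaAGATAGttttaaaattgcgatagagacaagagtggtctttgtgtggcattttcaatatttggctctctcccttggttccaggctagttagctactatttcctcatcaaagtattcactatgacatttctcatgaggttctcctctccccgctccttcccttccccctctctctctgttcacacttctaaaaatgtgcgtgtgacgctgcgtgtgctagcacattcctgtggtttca
Tph1 start site 2, chr7:46667378-46667627, minus strand: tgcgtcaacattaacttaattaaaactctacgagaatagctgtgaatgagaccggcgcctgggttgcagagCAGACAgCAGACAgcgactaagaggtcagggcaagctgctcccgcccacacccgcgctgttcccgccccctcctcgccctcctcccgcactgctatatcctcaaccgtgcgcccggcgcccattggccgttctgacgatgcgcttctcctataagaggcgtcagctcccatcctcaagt
Slc18a2, chr19:59260628-59260877, plus strand: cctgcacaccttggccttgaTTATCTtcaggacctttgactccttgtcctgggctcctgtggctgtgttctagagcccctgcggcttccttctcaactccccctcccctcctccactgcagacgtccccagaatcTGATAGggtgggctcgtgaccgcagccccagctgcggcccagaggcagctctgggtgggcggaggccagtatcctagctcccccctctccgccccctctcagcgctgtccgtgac
The Hdc window held TGATAG with its first base 221 bases before the start, and the first Tph1 window held AGATAG at 236. Slc18a2 held 2 GATA words, AGATAA on the opposite strand at 230 and TGATAG at 115, and its window lies inside the span of Gm29261. The second Tph1 window held 2 copies of CAGACA, at 179 and at 172. Among 32851 mouse windows of the same length, 26.5% held a GATA word and 17.3% a SMAD word, so such matches are frequent. No E-box (17.6% of all windows) and no STAT word (7.02%) was found in the 4 windows shown. A match describes letters and is not a binding site.

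The libraries held 1237382 to 2323916 gene counts (median 1708116), so that 3 counts stood for 1.26 to 2.55 CPM, the gene counts scaled to a library total of 1000000. Ribosomal RNA and satellite loci took 14.2% to 28.8% of gene counts, with the highest share in the library of 1 ng/mL TGF-β alone. All 10 mast cell markers were detected in every group. Of 10 neutrophil genes, 5 had 0 counts in all libraries (S100a8, S100a9, Ltf, Retnlg and Mpo) and the 10 summed to at most 2.545 CPM. Of 10 macrophage genes, 4 were at 0, C1qb, C1qc and Marco among them, and the list summed to 13.05 to 20.77 CPM, with Csf1r at 7.02 to 14.5 CPM. Of 10 platelet and megakaryocyte genes, Pf4 and Ppbp were at 0, but the list summed to 1815.8 to 2294.4 CPM. Most of that sum was Itga2b, an integrin chain, at 1315.2 to 1836.7 CPM. A filter on low counts left 11247 genes for testing, all 3 members among them. Changes are log2 fold changes ± standard error from edgeR's quasi-likelihood test, and a gene passed at a Benjamini-Hochberg adjusted p under 0.05 over all 11247 genes.

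The 3 transcripts differed widely in amount. Per kilobase of exon and averaged over the 10 libraries, Tph1 stood at 893.6 CPM, Slc18a2 at 255.1 CPM and Hdc at 9.19 CPM. On this per-length scale only 35 of the 11235 tested genes with a known length were above Tph1 and 121 above Slc18a2, while 4228 were above Hdc. Within single libraries, the level of Tph1 per kilobase was 55.6 to 265 times that of Hdc and 1.93 to 5.20 times that of Slc18a2. Their close relatives had few counts: Tph2, the tryptophan hydroxylase of neurons, had 1 count and Slc18a1, the VMAT1 transporter of endocrine cells, 5 counts over all libraries.

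Hdc was low in every library that had received TGF-β, with or without SCF. It stood at 122.6 and 82.6 CPM in the SCF libraries, at 27.4 and 22.6 CPM when 1 ng/mL TGF-β was added to SCF, and at 23.7 and 35.3 CPM when 10 ng/mL was added. TGF-β alone gave 24.6 CPM at 1 ng/mL and 39.6 CPM at 10 ng/mL, against 98.5 and 110.2 CPM in IL-3 alone. The 6 libraries with TGF-β (22.6 to 39.6 CPM) did not overlap the 4 without it (82.6 to 122.6 CPM), a split whose share over all genes was not computed. All libraries were lower in 22.1% and 24.5% of all genes for 1 and 10 ng/mL TGF-β on SCF, and in 22.1% for TGF-β alone against IL-3. The counts behind these levels were 29 to 65 per library with TGF-β and 131 to 245 without it. For the single libraries of TGF-β alone, the exact 95% Poisson interval, which covers counting error only, was 16.5 to 35.3 CPM at 1 ng/mL and 29.5 to 52.1 CPM at 10 ng/mL.

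**Figure D1:**
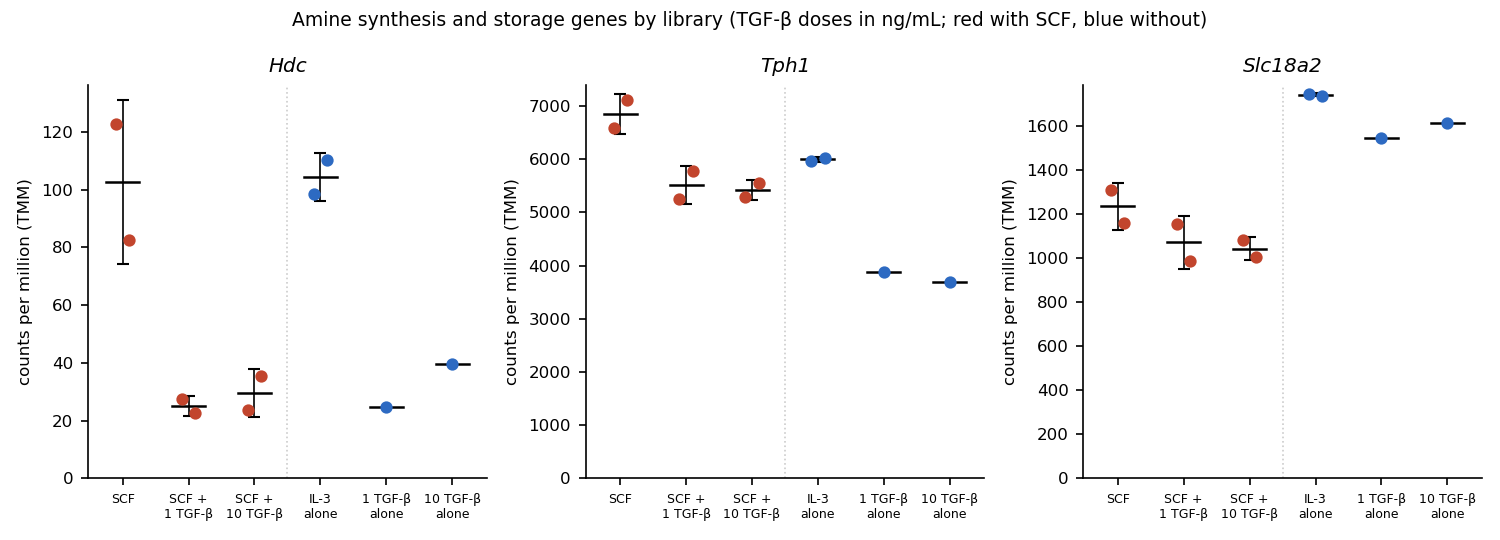
CPM with TMM scaling (y axis, from 0) of Hdc, Tph1 and Slc18a2 in each of the 10 libraries, by group (x axis, TGF-β in ng/mL). Points are libraries, bars are means and whiskers are SD (n = 2; none for n = 1). Hdc is low in the 6 libraries with TGF-β, at 22.6 to 39.6 CPM, and Slc18a2 in the 6 libraries with SCF, at 985.8 to 1308.1 CPM.

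Added to SCF, 1 ng/mL TGF-β lowered Hdc 4.09-fold (log2 -2.03 ± 0.24, adjusted p = 5.21e-05) and 10 ng/mL lowered it 3.53-fold (log2 -1.82 ± 0.23, adjusted p = 6.64e-05). Of the 11247 genes, 2.75% passed in the lower direction at 1 ng/mL and 4.59% at 10 ng/mL, and 0.729% and 1.57% had a log2 fold change below that of Hdc. Without SCF, TGF-β (the mean of its 2 doses) lowered Hdc 3.33-fold against IL-3 (log2 -1.73 ± 0.25, adjusted p = 0.000499), where 2.12% of genes passed as lower. SCF with TGF-β was 3.83-fold below IL-3 (log2 -1.94 ± 0.19, adjusted p = 1.7e-06), where 11.2% of genes passed as lower. These 4 calls held in each of the 18 or 19 alternatives run, including each library left out in turn and the ribosomal RNA and satellite loci removed. The 2 comparisons with SCF as control share the SCF libraries, and those with IL-3 as control share the IL-3 libraries.

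SCF itself did not move Hdc past the test. The SCF mean of 102.6 ± 28.3 CPM and the IL-3 mean of 104.3 ± 8.3 CPM (SD, n = 2 each) differed by a log2 value of -0.01, with a 95% interval of -0.45 to 0.42 (adjusted p = 0.982). In cells with TGF-β, adding SCF changed Hdc by -0.20 ± 0.25 on the log2 scale (adjusted p = 0.594, interval -0.73 to 0.33). The TGF-β effect with SCF minus that without it, the interaction, was -0.19 (interval -0.88 to 0.49, adjusted p = 0.908). The step from 1 to 10 ng/mL TGF-β under SCF was 0.21 (interval -0.35 to 0.77, adjusted p = 1). Ordered by mean, IL-3 and SCF stood at the top with overlapping libraries, and the 4 TGF-β groups lay below, with gaps of 0.355 to 10.1 CPM between neighbours, all under the pooled SD of 15.4 CPM.

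The fall of Hdc ran beside a fall of some mast cell markers. Fcer1a, the ligand-binding chain of the IgE receptor, was lower with TGF-β added to SCF (log2 -0.88 at 10 ng/mL, adjusted p = 7.75e-05) and with TGF-β alone (log2 -0.62, adjusted p = 0.00393). Tpsb2, a mast cell tryptase, went the other way with TGF-β alone. It was at 14687 to 17880 CPM in the 4 libraries of SCF with TGF-β, 15124 and 18210 CPM with SCF, and 14165 and 13172 CPM with TGF-β alone at 1 and 10 ng/mL, against 8416 and 7488 CPM in IL-3. TGF-β alone raised it (log2 0.78, adjusted p = 0.00175), while on SCF neither dose passed (log2 -0.03 and -0.07). Of the 10 mast cell markers, 0 rose and 2 fell at 1 ng/mL TGF-β on SCF, 0 rose and 4 fell at 10 ng/mL, and 1 rose and 2 fell with TGF-β alone. The 10 mast cell markers summed to 79835 to 93625 CPM in SCF, 58731 to 70336 CPM with 1 ng/mL and 56667 to 64497 CPM with 10 ng/mL TGF-β added, 55421 and 55698 CPM with TGF-β alone, and 66386 to 69394 CPM in IL-3. Basophils also express Hdc, and the 8 basophil markers, none at 0 in all libraries, summed to 669.4 to 709.9 CPM in SCF, 652.1 to 761.3 CPM in SCF with TGF-β, 585.1 and 651.6 CPM with TGF-β alone and 675.2 to 811.2 CPM in IL-3, mostly from Cd200r3. Mcpt8, the defining basophil protease of that list, was at 11.2 to 24.98 CPM in SCF with TGF-β, 6.303 and 7.01 CPM in SCF, 1.70 and 6.99 CPM with TGF-β alone at 1 and 10 ng/mL, and 0.518 and 1.40 CPM in IL-3. It was higher in the combination than in IL-3 (log2 4.17, adjusted p = 0.000186), on 1 and 2 counts in the IL-3 libraries. In the same comparison Il4, a cytokine of basophils and mast cells, and Fcgr2b, an inhibitory IgG receptor, were lower (log2 -2.43 and -1.12, adjusted p = 3.79e-06 and 5.05e-05). Prss34, also of that list, was at 1.09 to 9.50 CPM in the combination and 13.99 and 15.4 CPM in IL-3 (log2 -1.15, adjusted p = 0.0627, not past the threshold). With SCF against IL-3 Prss34 was lower (log2 -2.10, adjusted p = 0.0307), where Mcpt8 was higher (log2 2.80, adjusted p = 0.0449). That Mcpt8 call was lost with limma-voom (adjusted p = 0.166) and without any 1 of the SCF or IL-3 libraries (log2 2.20 to 3.52). Of the 8 basophil markers 5 were tested; by edgeR none passed at 1 ng/mL TGF-β on SCF or without SCF (4 and 1 at an unadjusted p under 0.05), and Il4 alone passed at 10 ng/mL on SCF (log2 -1.24, adjusted p = 0.039, lost in 5 of the 10 fits that left out 1 library, with adjusted p up to 0.392, and with DESeq2, 0.261, and limma-voom, 0.0725). The part of these marker levels in the Hdc result was not tested.

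Tph1 was lowest with TGF-β alone and higher where SCF was added to TGF-β. It stood at 6591.4 and 7119.9 CPM in SCF, 5260.5 and 5771.1 CPM when 1 ng/mL TGF-β was added to SCF, and 5295.8 and 5555.3 CPM when 10 ng/mL was added. TGF-β alone gave 3873.4 CPM at 1 ng/mL and 3685.7 CPM at 10 ng/mL, against 5969.0 and 6033.0 CPM in IL-3. The SCF libraries were the highest of all 10 and those of TGF-β alone the lowest, an order whose share over all genes was not computed. All libraries were higher in 26.2% of all genes for SCF against IL-3, and lower in 22.1% for TGF-β alone against IL-3. The exact Poisson intervals for TGF-β alone, 3761.8 to 3987.4 CPM at 1 ng/mL and 3581.6 to 3792.1 CPM at 10 ng/mL, lay below every other library.

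TGF-β alone lowered Tph1 1.59-fold against IL-3 (log2 -0.67 ± 0.11, adjusted p = 0.00175). SCF with TGF-β was 1.45-fold above TGF-β alone (log2 0.53 ± 0.10, adjusted p = 0.000834), in a comparison in which 13.3% of genes passed as higher, and was not distinguished from IL-3 (log2 -0.13, interval -0.33 to 0.07, adjusted p = 0.35). Both calls held in all 18 alternatives run. Added to SCF, TGF-β gave log2 values of -0.31 ± 0.11 at 1 ng/mL (adjusted p = 0.138) and -0.34 ± 0.11 at 10 ng/mL (adjusted p = 0.072), neither past the threshold, although all 4 libraries with TGF-β were below both SCF libraries. At each dose the value did pass in 1 or more of the alternatives run, so these calls depend on the setting. Such non-overlapping lower libraries occurred in 22.1% and 24.5% of all genes. The 10 ng/mL value passed with limma-voom (adjusted p = 0.0254), without the filter on low counts (0.0298) and without the ribosomal RNA and satellite loci (0.0491), with log2 values of -0.34, -0.32 and -0.33.

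The difference of the TGF-β effects on Tph1 with and without SCF did not pass. The interaction was 0.34 ± 0.15 on the log2 scale, with an interval of 0.03 to 0.65 and an unadjusted p of 0.0322 from edgeR (adjusted p = 0.48), where 0.293% of genes passed. SCF against IL-3 gave 0.19 (interval -0.04 to 0.42, adjusted p = 0.311), and the dose step -0.02 (interval -0.26 to 0.21). In the order of means, SCF (6856 CPM), IL-3 (6001 CPM), both SCF with TGF-β groups (5516 and 5426 CPM) and both TGF-β alone libraries were separated by more than the pooled SD of 276.5 CPM, while the 2 doses within each pair were not.

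Slc18a2 was low in every library that had received SCF, with or without TGF-β. It stood at 1308.1 and 1159.1 CPM in SCF, 1155.4 and 985.8 CPM when 1 ng/mL TGF-β was added to SCF, and 1079.6 and 1004.0 CPM when 10 ng/mL was added. TGF-β alone gave 1546.0 CPM at 1 ng/mL and 1613.2 CPM at 10 ng/mL, against 1744.7 and 1735.4 CPM in IL-3. The 6 libraries with SCF did not overlap the 4 without it, a split whose share over all genes was not computed. In 27.1% of all genes, both SCF libraries were below both IL-3 libraries. Libraries of the combination were all lower in 23.8% of genes when compared with TGF-β alone, and in 22.4% when compared with IL-3. Platelets also carry VMAT2, and of the 3 tested platelet and megakaryocyte markers Vwf, von Willebrand factor, was higher with SCF than in IL-3 (152.2 and 159.5 CPM, against 60.1 and 90.5 CPM; log2 1.07, adjusted p = 0.00161), where Slc18a2 was lower. The part of these markers in the Slc18a2 result was not tested.

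SCF lowered Slc18a2 1.41-fold against IL-3 (log2 -0.50 ± 0.13, adjusted p = 0.021), where 3.46% of genes passed as lower. The call was lost without the second SCF library (log2 -0.40, adjusted p = 0.194), without the first IL-3 library (-0.49, 0.0676) and without the second (-0.50, 0.113). In cells with TGF-β, SCF lowered it 1.495-fold (log2 -0.58 ± 0.11, adjusted p = 0.000894), where 11.4% of genes passed as lower, and SCF with TGF-β was 1.65-fold below IL-3 (log2 -0.72 ± 0.11, adjusted p = 9.37e-05). Both of these held in all the alternatives run. The TGF-β effects did not pass: -0.20 (interval -0.47 to 0.06, adjusted p = 0.481) at 1 ng/mL and -0.24 (interval -0.51 to 0.02, adjusted p = 0.3) at 10 ng/mL on top of SCF, and -0.14 (interval -0.41 to 0.13, adjusted p = 0.661) without SCF. The interaction was -0.08 (interval -0.44 to 0.27, adjusted p = 0.932) and the dose step -0.04 (interval -0.31 to 0.23, adjusted p = 1).

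The antisense gene at the 5′ end of Slc18a2 moved in the same comparisons. Gm29261 stood at 95.6 and 80.1 CPM in SCF, 63.5 to 86.3 CPM in SCF with TGF-β, and 116.2 and 109.6 CPM with TGF-β alone, against 136.3 and 156.5 CPM in IL-3. It was lower with SCF than in IL-3 (log2 -0.73 ± 0.17, adjusted p = 0.0125, lost without the second SCF or the second IL-3 library, adjusted p = 0.138 and 0.129) and lower in SCF with TGF-β than in IL-3 (log2 -0.92 ± 0.14, adjusted p = 0.000159, held in all 19 alternatives). The strand setting of the counting is not given in the sources used here, so reads of Slc18a2 and of Gm29261 in the shared stretch cannot be told apart. Of the flanking genes, Gabpb1 beside Hdc and Sergef and Saal1 beside Tph1 did not pass in any of the 8 comparisons. Pdzd8, whose span begins 1165 bases beyond that of Slc18a2, was lower with SCF than in IL-3 (log2 -0.78 ± 0.22, adjusted p = 0.0365) and lower in the combination than with TGF-β alone (log2 -0.55 ± 0.19, adjusted p = 0.0392). The first of these was lost without any 1 of the SCF libraries (0.151 and 0.13) or IL-3 libraries (0.0983 and 0.161), and the second in 7 of the fits that left out 1 library, with adjusted p up to 0.465. Both were also lost with DESeq2 (0.181 and 0.262) and without the filter on low counts (0.0632 and 0.13).

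**Figure D2:**
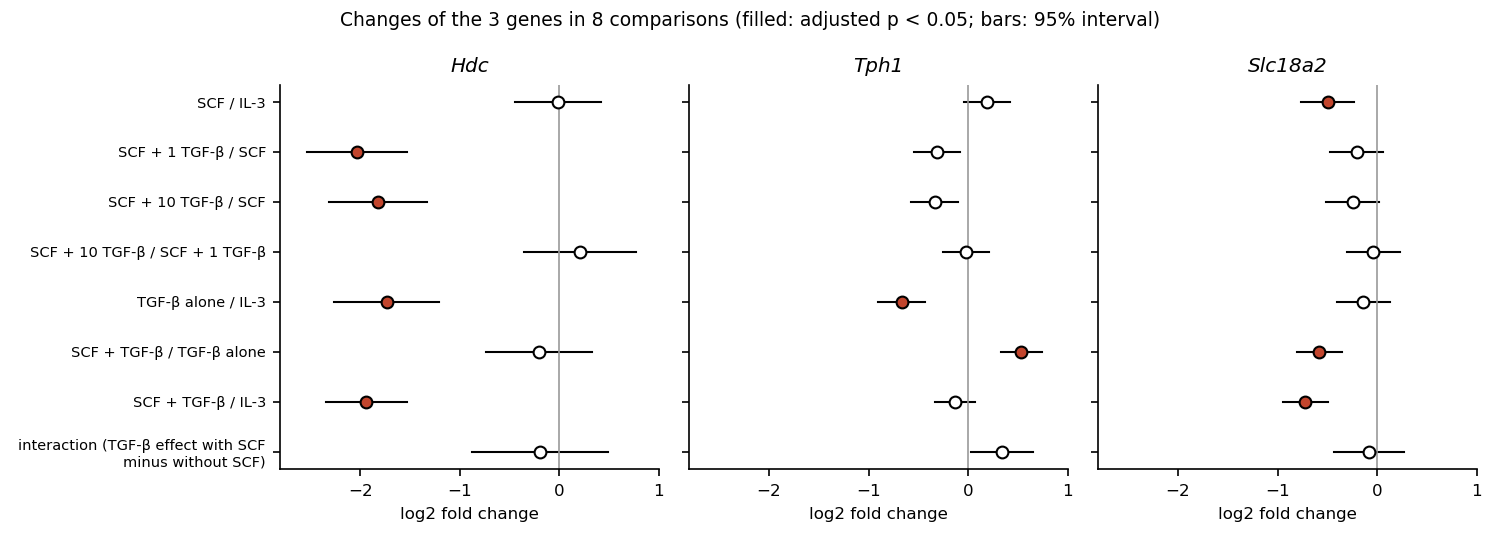
Log2 fold changes (x axis) of Hdc, Tph1 and Slc18a2 in the 8 comparisons (y axis), with 95% intervals as bars and filled points where the adjusted p was under 0.05. Hdc lies at -1.73 to -2.03 in the 4 comparisons of cells with and without TGF-β, Tph1 has 1 fall and 1 rise, and Slc18a2 falls in the 3 comparisons of cells with and without SCF.

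Set side by side, the 3 genes passed in different sets of comparisons, some of which were shared by a pair of them. With TGF-β added to SCF, 1 of the 3 passed at each dose, where 4.64% of all genes passed in either direction at 1 ng/mL and 8.37% did so at 10 ng/mL. With TGF-β alone against IL-3, Hdc and Tph1 passed (3.48% of genes). With SCF against IL-3, Slc18a2 passed (9.17%). In the combination, Tph1 was higher and Slc18a2 lower than with TGF-β alone (24.7%), and Hdc and Slc18a2 were lower than in IL-3 (22.2%). None of the 3 passed between the doses (0.0178%) or for the interaction (0.293%), by edgeR or by any alternative run, and at an unadjusted p under 0.05 only the Tph1 interaction did.

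Ratios within a library do not depend on its scaling. There were 11.6 and 18.6 Hdc counts per 1000 Tph1 counts in SCF, 3.91 to 6.35 in SCF with TGF-β, 6.35 and 10.8 with TGF-β alone, and 16.5 and 18.3 in IL-3, so every library with TGF-β was below every library without it. The ratio of Tph1 to Slc18a2 counts split the libraries by SCF instead, at 4.55 to 6.14 in the 6 libraries with SCF and 2.28 to 3.48 in the 4 without it. Per 1000 Slc18a2 counts, Hdc had 71.2 and 93.8 counts in SCF, 21.9 to 35.2 in SCF with TGF-β, 15.9 and 24.6 with TGF-β alone and 56.4 and 63.5 in IL-3. These are descriptions, without a test.

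**Figure D3:**
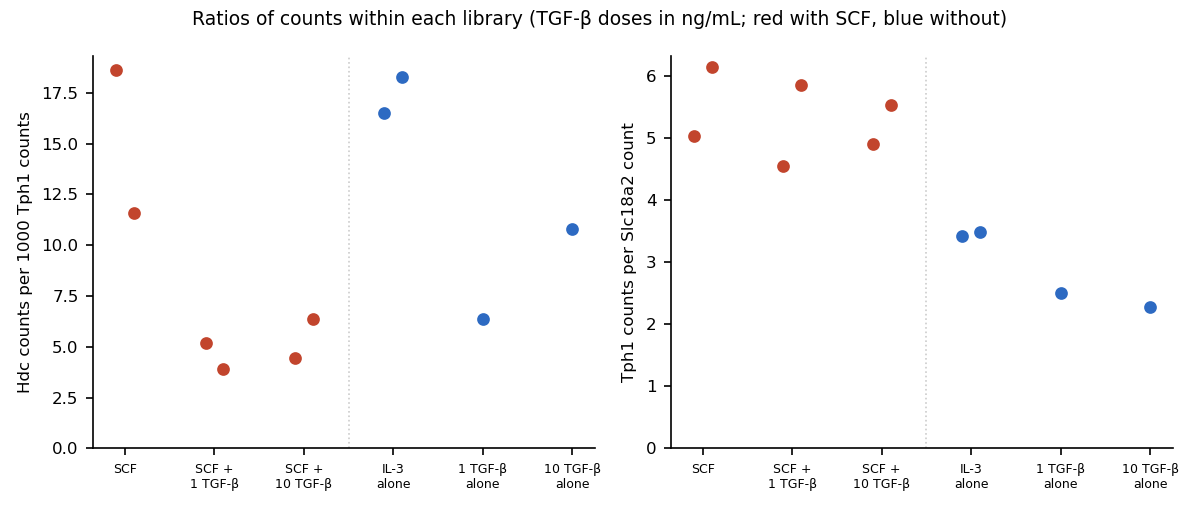
Hdc counts per 1000 Tph1 counts (left) and Tph1 counts per Slc18a2 count (right) in each library, by group (x axis, TGF-β in ng/mL). The left ratio is 3.91 to 10.8 in libraries with TGF-β and 11.6 to 18.6 without it, and the right ratio is 4.55 to 6.14 with SCF and 2.28 to 3.48 without it.

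The other genes of amine handling were taken from 7 lists of 89 symbols, chosen with earlier results of these data known: substrate supply and synthesis, cofactors, storage and membrane transport, the proton pump, breakdown, receptors, and mast cell transcription factors and their relatives. Of these, 88 were in the table and 48 were tested. With TGF-β added to SCF, 1 rose and 9 fell at 1 ng/mL (20.8% of the 48, against 4.64% of all genes), and 2 rose and 11 fell at 10 ng/mL (27.1%, against 8.37%). With TGF-β alone against IL-3, 1 rose and 7 fell (16.7%, against 3.48%). With SCF against IL-3, 5 rose and 4 fell (18.8%, against 9.17%). SCF with TGF-β had 12 higher and 7 lower than TGF-β alone (39.6%, against 24.7%), and 5 higher and 16 lower than IL-3 (43.8%, against 22.2%). Single libraries carried part of these counts: the total at 1 ng/mL was 6 without the first SCF library and 5 without the second library of SCF with 1 ng/mL. The total for TGF-β alone was 4 without the first IL-3 library and 5 without either library of TGF-β alone. That for SCF against IL-3 was 3 without the second IL-3 library and 4 without the second SCF library. Those for SCF with TGF-β were 10 against TGF-β alone without the 1 ng/mL library of TGF-β alone, and 12 against IL-3 without the first IL-3 library. Between the doses edgeR called 0 of the 48, with 4 at an unadjusted p under 0.05, and DESeq2 and limma-voom also called 0.

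Among the 5 tested genes of synthesis and substrate supply, Ddc, whose enzyme turns 5-hydroxytryptophan into serotonin, was higher where SCF and TGF-β were combined, where Hdc was low. It stood at 47.1 and 75.6 CPM in SCF, 102.3 and 122.9 CPM when 1 ng/mL TGF-β was added to SCF, 119.3 and 119.5 CPM when 10 ng/mL was added, and 39.0 and 36.5 CPM with TGF-β alone at 1 and 10 ng/mL, against 16.1 CPM in both IL-3 libraries. Every stimulated group was above IL-3 and the combinations were highest. Ddc rose with SCF (log2 1.91 ± 0.26, adjusted p = 0.000218), and in SCF with TGF-β against IL-3 (log2 2.84 ± 0.23, adjusted p = 1.32e-07) and against TGF-β alone (log2 1.61 ± 0.20, adjusted p = 3.14e-05). These 3 calls held in all alternatives run. Its rise when 10 ng/mL TGF-β was added to SCF (log2 0.98 ± 0.20, adjusted p = 0.00445) was lost without the first SCF library (adjusted p = 0.0938). Slc3a2, the heavy chain shared by large amino acid carriers, fell with TGF-β alone (log2 -0.61, adjusted p = 0.0237), a call lost without the first IL-3 library (0.166) or either library of TGF-β alone (0.0589 and 0.189). In that comparison the list had 1 higher gene, Ddc, and 2 lower genes, Slc3a2 and Slc7a8, and a median of -0.58, against -0.02 over all genes. The Ddc call (log2 1.23, adjusted p = 0.0241) was lost with limma-voom (0.0617) and without any 1 of the IL-3 or TGF-β alone libraries (log2 1.18 to 1.27). The Slc7a8 call (log2 -0.58, adjusted p = 0.032) was also lost without any 1 of these libraries (log2 -0.66 to -0.53).

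Among the cofactor genes, Pdxk was low in every library with TGF-β. Pdxk, the kinase that makes pyridoxal phosphate, on which both HDC and DDC depend, stood at 196.2 and 197.9 CPM in SCF, 51.0 and 57.0 CPM with 1 ng/mL and 33.1 and 36.4 CPM with 10 ng/mL TGF-β added, and 110.3 and 76.2 CPM with TGF-β alone at 1 and 10 ng/mL, against 192.2 and 195.8 CPM in IL-3. Like Hdc it was lower in every library with TGF-β than in every library without it, a split whose share over all genes was not computed. It fell with TGF-β added to SCF (log2 -1.87 ± 0.16 at 1 ng/mL and -2.51 ± 0.16 at 10 ng/mL, adjusted p = 1.81e-06 and 5.15e-08) and with TGF-β alone (log2 -1.08 ± 0.15, adjusted p = 0.00046), and these calls held in all alternatives run. Of the tetrahydrobiopterin genes, on whose product TPH1 depends, Gch1, the first enzyme of its synthesis, was higher in SCF with TGF-β than in IL-3 (147.4 and 77.3 CPM, log2 0.93, adjusted p = 0.000409), and its inhibitory partner Gchfr was lower (2.74 and 14.6 CPM, log2 -2.48, adjusted p = 0.0003). Gchfr rests on 130 counts over all libraries. Of the 10 tested genes of the list, 2 rose and 3 fell in that comparison, with a median of -0.12 against -0.02 over all genes.

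Among the 4 tested genes of storage and transport, those of the granule matrix fell when TGF-β was added to SCF. Srgn, the serglycin core protein whose heparin chains bind amines in the granule, stood at 4863.3 and 5030.5 CPM in SCF, 2705.8 and 2598.9 CPM with 1 ng/mL and 2295.1 and 2445.6 CPM with 10 ng/mL TGF-β added, and 1574.0 and 1730.6 CPM with TGF-β alone, against 3146.4 and 2953.0 CPM in IL-3. SCF was therefore above IL-3 (log2 0.70, adjusted p = 0.00101), and TGF-β lowered Srgn from either start (log2 -1.06 at 10 ng/mL on SCF and -0.89 without SCF, adjusted p = 1.04e-05 and 0.000189). Cpa3, the granule carboxypeptidase, did the same (log2 0.69 with SCF, -1.28 at 10 ng/mL on SCF and -1.08 without SCF, adjusted p = 0.00139, 2.48e-06 and 3.46e-05). Ndst2, which sulfates heparin, fell at 10 ng/mL on SCF (log2 -1.20, adjusted p = 0.00112). These calls held in all alternatives run. At 10 ng/mL on SCF the list had 3 of 4 lower, with a median of -1.13 against 0.00 over all genes. The amine carriers of the plasma membrane Slc22a2 and Slc22a3 had 0 counts.

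The proton pump makes the gradient that VMAT2 uses. Of its 16 tested genes, 0 rose and 2 fell at 1 ng/mL TGF-β on SCF and 0 rose and 3 fell at 10 ng/mL, where 2.75% and 4.59% of all genes passed as lower, with medians of -0.21 and -0.23 against 0.01 and 0.00 over all genes. The 2 calls at 1 ng/mL were Atp6v1e1 and Atp6ap1 (adjusted p = 0.0369 and 0.0206), lost in 9 and 3 of 19 alternatives, with adjusted p up to 0.308 and 0.181. Atp6v1e1, a stalk subunit, was at 74.6 and 76.6 CPM when 10 ng/mL TGF-β was added to SCF and at 130.7 and 132.4 CPM in SCF (log2 -0.80, adjusted p = 0.00311, held in all 19 alternatives). Atp6v0a1, a membrane subunit, was higher with SCF than in IL-3 (means of 85.7 and 46.8 CPM, log2 0.87, adjusted p = 0.011), a call lost without the first SCF (0.0627) or the second IL-3 library (0.126).

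For breakdown, the enzymes that inactivate histamine, Hnmt and Aoc1, had 0 counts in all libraries, which at 3 counts per library allows 1.26 to 2.55 CPM. Maob, a monoamine oxidase of the mitochondrial membrane, stood at 485.6 and 489.7 CPM in SCF, 315.8 and 339.5 CPM with 1 ng/mL and 269.9 and 288.9 CPM with 10 ng/mL TGF-β added, and 205.3 and 202.0 CPM with TGF-β alone, against 407.8 and 393.7 CPM in IL-3. It fell with 10 ng/mL TGF-β on SCF (log2 -0.80, adjusted p = 0.00058) and with TGF-β alone (log2 -0.98, adjusted p = 0.000364), and in TGF-β-treated cells it was higher with SCF (log2 0.57, adjusted p = 0.0023). Aldh2, which oxidises the aldehydes that monoamine oxidases release, fell with TGF-β on SCF (log2 -0.65 at 1 ng/mL and -0.77 at 10 ng/mL, adjusted p = 0.00309 and 0.000442). These calls held in all alternatives run. Maoa, the other monoamine oxidase, had 14 counts in all.

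Of the 18 receptor genes 2 passed the filter on low counts. Hrh4, a histamine receptor that mast cells carry, stood at 75.1 and 53.6 CPM in SCF, 24.8 and 23.2 CPM with 1 ng/mL and 19.7 and 17.4 CPM with 10 ng/mL TGF-β added, and 73.8 and 42.0 CPM with TGF-β alone at 1 and 10 ng/mL, against 83.4 and 96.8 CPM in IL-3. It fell with TGF-β on SCF (log2 -1.43 and -1.80 at 1 and 10 ng/mL, adjusted p = 0.000678 and 6.43e-05) and was lower in SCF with TGF-β than with TGF-β alone (log2 -1.39, adjusted p = 0.00011), and these calls held in all alternatives run. The TGF-β effect without SCF did not pass (log2 -0.69, adjusted p = 0.0812). Hrh2 was higher in SCF with TGF-β than with TGF-β alone (log2 1.05, adjusted p = 0.0286), a call lost without the first library of SCF with 10 ng/mL (0.0618) or either library of TGF-β alone (0.129 and 0.126), with DESeq2 (0.105) and with limma-voom (0.0641). No serotonin receptor exceeded 20 counts over all libraries.

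**Figure D4:**
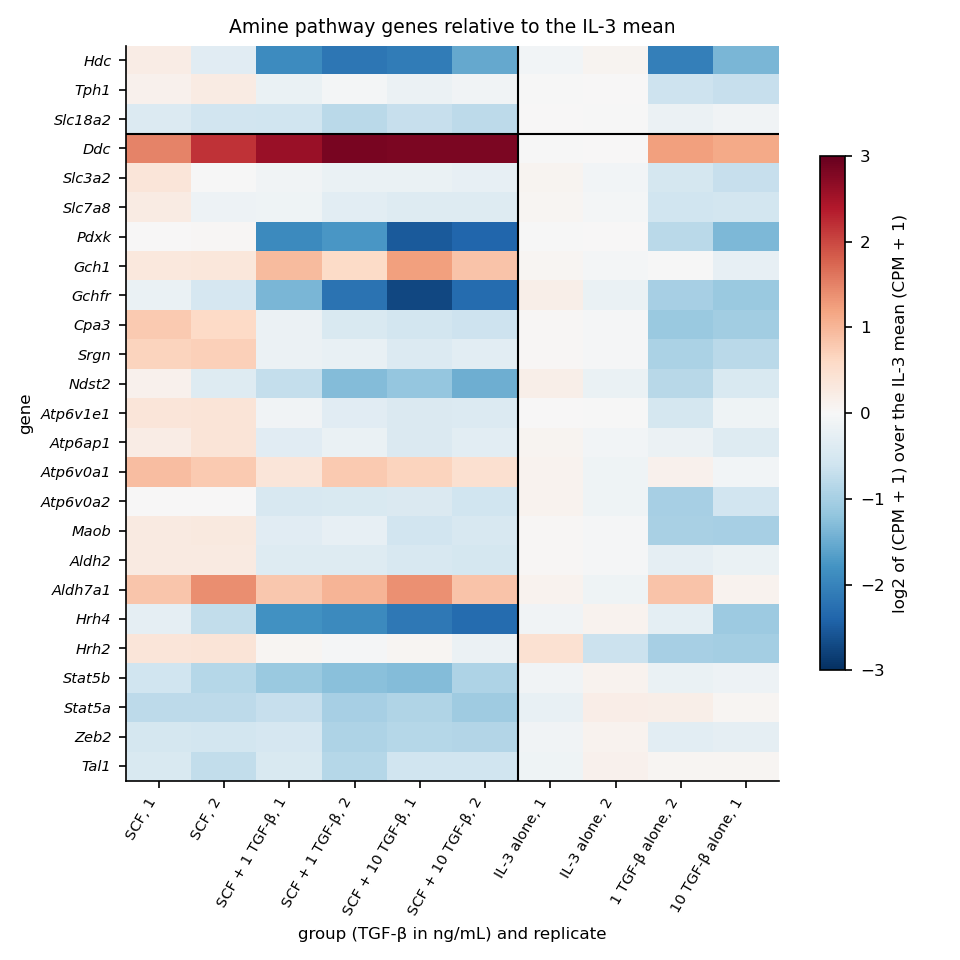
Log2 of (CPM + 1) over the IL-3 mean (colour, clipped at -3 and 3) for the 3 members, above the line, and the 22 genes named from the lists (rows) in the 10 libraries (columns, TGF-β in ng/mL). Within their own rows, Hdc, Pdxk and Gchfr are darkest blue in the columns with TGF-β, and Slc18a2, Stat5a and Stat5b in columns with SCF, as some other rows are. Ddc is red in all stimulated columns.

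The changes among the transcription factors were in comparisons of cells with and without SCF. Of the 7 tested, 0 rose and 4 fell with SCF against IL-3, where 3.46% of all genes passed as lower, and 0 rose and 6 fell in SCF with TGF-β against IL-3, where 11.2% did (median -0.61, against -0.02 over all genes), and edgeR called 0 in the 3 comparisons of TGF-β with SCF or IL-3. In those 3 limma-voom and DESeq2 also called 0, and at an unadjusted p under 0.05 the counts were 1 at each dose on SCF and 0 for TGF-β alone. Stat5a and Stat5b, the signal transducers of the IL-3 receptor, were lower in SCF with TGF-β than with TGF-β alone (log2 -1.03 and -0.98, adjusted p = 0.00015 and 0.000404) and than in IL-3 (log2 -0.90 and -1.15, adjusted p = 0.000344 and 4.23e-05), and these calls held in all alternatives run. With SCF against IL-3 their falls (log2 -0.79 and -0.71, adjusted p = 0.0111 and 0.022) were each lost without the second SCF library (0.0784 and 0.191) or the second IL-3 library (0.158 and 0.172), that of Stat5a also without the first SCF library (0.0512), and that of Stat5b with DESeq2 (0.0878). Klf4 had 0 counts.

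To find genes with a like pattern, the 6 group means of log2 (CPM + 1) were centred for each of 6102 genes averaging 20 CPM or more, and the root mean square difference from each member was taken. Closest to Hdc, whose own means varied by 0.871 around their average, were Osm (0.311), Nbea (0.319), Sec22c (0.343), Trpv2 (0.343) and Itgb2 (0.362). Closest to Tph1 (own variation 0.325) were Maz (0.0497), the amino acid carrier chain Slc3a2 (0.0556), Cdkn1a (0.0567), Uqcr10 (0.0644) and Prdx5 (0.0652), and closest to Slc18a2 (0.292) were Chmp5 (0.0267), Rnf169 (0.0514), Wdr73 (0.0516), Itch (0.0519) and Xist (0.0549). The difference was 0.72 between Hdc and Tph1, 0.805 between Hdc and Slc18a2 and 0.52 between Tph1 and Slc18a2. The genes named above were picked as the closest, so any gene not picked, the other members included, lies farther. How many of the 6102 genes lay nearer to a member than the other members did was not computed. These values describe 6 group means and carry no test.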

How the data were processed

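Per the labels' protocols, total RNA of bulk BMMC cultures was made into SmartSeq2 and Nextera XT libraries and sequenced as paired reads; no molecular identifiers are named. The tools named are HTSeq, STAR and DESeq2 and the builds mm10 and GRCm38, per the submitters' processing notes; for versions, annotation release and strand setting the sources used here say nothing. The authors deposited raw read counts per gene; 5 rows that name no gene were left out.

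The main test was edgeR's quasi-likelihood F test (version 4.0.16 in R 4.3.3), after filterByExpr and TMM scaling, over 1 mean for each of 6 groups, with 4 residual degrees of freedom. The groups of TGF-β alone have 1 library each, so that their spread is assumed to be that of the other groups, and their 2 doses were averaged in the comparisons. Intervals are at 95%; those on single libraries cover counting error only. Alternatives were DESeq2 1.42.0 (size factors and Wald test), limma-voom (limma 3.58.1), other filters, fewer groups, a replicate block, each library left out, and the ribosomal RNA and satellite loci left out. Replicates differed by more than counting error (chi-square per gene 3.30 to 4.24). The pipeline was tested on simulated data. The members and gene lists were chosen with earlier results of these data known. From each list up to 4 genes were named, those with the smallest adjusted p among genes that passed, except for 1 that is not reported here; Gm29261, Pdzd8, Fcer1a, Tpsb2, Mcpt8, Il4, Fcgr2b, Csf1r, Itga2b, Vwf and the genes given for 0 or few counts were added after their values were seen.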

Additional observations from a re-analysis of the deposited data

Results flagged for a closer look

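The effect of TGF-β on Pdxk was larger with SCF than without it. The difference, tested as the interaction of the 2 stimuli, was -1.11 on the log2 scale (adjusted p = 0.036, edgeR), with a TGF-β effect of -1.87 and -2.51 at the 2 doses on SCF and of -1.08 without SCF. In that test 0.293% of all genes passed. The call was lost in 8 of the 10 fits that left out 1 library: without either SCF library (adjusted p = 0.0695 and 0.0745), the first library of SCF with 1 ng/mL (0.0554), either library of SCF with 10 ng/mL (0.084 and 0.0564), either IL-3 library (0.163 and 0.11) or the 1 ng/mL library of TGF-β alone (0.3).

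The same interaction for Tpsb2 was -0.83 (adjusted p = 0.0497, edgeR), with a TGF-β effect of -0.03 and -0.07 at the 2 doses on SCF and of 0.78 without SCF. It was lost in 8 of the 10 fits that left out 1 library (adjusted p up to 0.215), with DESeq2's size factors (0.0503) and with a filter of 10 CPM in 2 libraries (0.0701).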

How the results depend on the processing

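For the 3 members, all 4 Hdc calls, both Tph1 calls and the Slc18a2 calls of the combination against either TGF-β alone or IL-3 kept direction and threshold in every alternative run. The Slc18a2 fall with SCF against IL-3 ranged from -0.59 to -0.40 with 1 library left out and was lost without the second SCF library (-0.40) or either IL-3 library (-0.49 and -0.50). The labels tie no replicate number to a shared culture or batch, and with 2 numbers per group the data cannot settle whether they pair the libraries: deviations of same-numbered libraries correlated at 0.197 to 0.231 among the 3 SCF groups and at -0.00334 to 0.0215 between these and IL-3. With the replicate block the genes called came to 859 (522 without it) at 1 ng/mL on SCF and 718 (391) for TGF-β alone, and Tph1 passed at 1 ng/mL (-0.31, adjusted p = 0.00836) and 10 ng/mL TGF-β on SCF (-0.34, adjusted p = 0.00334). The 10 ng/mL value also passed with limma-voom (-0.34), without the filter on low counts (-0.32) and without the ribosomal RNA and satellite loci (-0.33); the cause was not tested. Values near 0 changed sign: Hdc in SCF against IL-3 (0.00575 without the filter; -0.33 to 0.24 with 1 library left out, 0.0680 without the second IL-3 library), Hdc in the combination against TGF-β alone (-0.55 to 0.14), the dose steps (-0.0881 to 0.49 for Hdc, -0.10 to 0.0475, with 0.0121, for Tph1 and -0.15 to 0.0699, with 0.0126, for Slc18a2) and the interactions (-0.54 to 0.15, with 0.13, for Hdc and -0.16 to 0.00807 for Slc18a2). Of 71 calls of named list genes, 40 held in all alternatives run. The totals of genes called, behind the shares over all genes, ranged with 1 library left out from 237 to 1055 for SCF against IL-3 (1031 with all libraries), 252 to 540 and 447 to 952 for 1 and 10 ng/mL TGF-β on SCF (522 and 941), 143 to 442 for TGF-β alone (391), 1278 to 2799 for the combination against TGF-β alone (2780), 1308 to 2523 for it against IL-3 (2499), 0 to 5 between the doses (2) and 0 to 30 for the interaction (33). In that order DESeq2's test called 471, 270, 438, 225, 1518, 1379, 0 and 22. Without the filter on low counts TGF-β alone gave 601, the dose step 8 and the interaction 125; with only the groups compared TGF-β alone gave 712; and with the block the dose step gave 5 and the interaction 102. Of the list counts by direction, 131 moved by more than 1.5 times and 1941 did not. Depth limits Hdc most, at 29 to 245 counts per library.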

Other observations

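Slc6a4, the serotonin transporter of the plasma membrane, which takes serotonin back into cells, passed no comparison but was uneven between libraries. It had 32 counts (14.3 CPM) in the first and 4 counts (2.17 CPM) in the second library of SCF with 10 ng/mL TGF-β, and 25 counts (19.4 CPM) in the library of 10 ng/mL TGF-β alone. The other 7 libraries had 3 to 9 counts.

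The SMAD word CAGACA was found in 17.1% and GTCTAGAC in 0.167% of the 32851 mouse promoter windows; the Hdc window held neither, and of the 2 windows of Tph1, which fell with TGF-β alone, the second held 2 copies of CAGACA. A match, or none, says only whether these letters are in the 250 bases searched.

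Tph1 was lower in the first than in the second replicate in all 4 groups with 2 libraries, with ratios of 0.912 to 0.989, and Slc18a2 was higher in the first, with ratios of 1.01 to 1.17. Fos, 1 of 10 RNA quality and stress genes looked at, was also higher in the first. It stood at 370.4 and 201.7 CPM in SCF and at 398.5 and 148.8 CPM in IL-3. With SCF it was at 175.6 and 55.2 CPM with 1 ng/mL and 235.1 and 53.2 CPM with 10 ng/mL TGF-β added. The library of TGF-β alone is replicate 2 at 1 ng/mL and replicate 1 at 10 ng/mL, so dose and replicate number cannot be told apart there.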
